A study of Homo sapiens with 6 samples.

Results

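Matrix metalloproteinases (MMPs) and the tissue inhibitors of metalloproteinases (TIMPs) were followed as 10 genes, chosen by name from the 58735 genes of a read count table. They were MMP1, MMP7, MMP9, MMP10, MMP13, MMP14 and MMP15, and TIMP1, TIMP2 and TIMP3. The counts came from RNA sequencing of T3M4, an established human pancreatic ductal adenocarcinoma line, grown untreated in serum-containing medium to near confluence. Of the 6 libraries, 3 carried titles beginning T3M4WT with a genotype label of MUC16 expressing, and 3 carried titles beginning T3M4M16 with a genotype label of MUC16 knockout. They are called WT and knockout here after those labels. How the gene was edited, and whether the knockout cells are 1 clone, is not given in the sources used here.

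MMPs are zinc-dependent endopeptidases that cut matrix and cell-surface proteins. Most are secreted as inactive precursors held shut by a propeptide, and some, the membrane-type MMPs, are anchored at the cell surface. TIMPs are small secreted proteins that block the active site of MMPs by binding to it, and TIMP2 also takes part in activating MMP2 by bridging its precursor to MMP14. In pancreatic carcinoma both stromal and carcinoma cells can make these proteins, and MMP7, or matrilysin, is made mainly by the epithelium.

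Libraries held between 19088927 and 28612621 gene counts. MUC16 transcripts went against the labels: 98, 144 and 90 counts were read in the WT libraries and 292, 504 and 323 in those labelled knockout (log2 difference 1.79 ± 0.17, SE; adjusted p = 4.79e-09 by the quasi-likelihood test of edgeR with Benjamini-Hochberg correction over all genes). Each direction given is therefore one between sets of libraries named by their labels, higher or lower meaning in the knockout-labelled set. Of 8 markers of ductal carcinoma epithelium, 7 were higher in the libraries labelled knockout and 0 lower, with a summed level of 3626 to 3711 CPM (counts scaled to library size) in WT libraries and 5652.5 to 5927 CPM in the others. The summed level of 10 fibroblast markers was 34.1 to 37.1 and 46.7 to 51.8 CPM, 3 were testable and 2 of these were higher. COL1A1 made up most of it, POSTN had 0 counts in every library and COL1A2 had 1 count in all 6 libraries together. The 8 leukocyte markers summed to 3.91 to 4.68 and 6.66 to 7.62 CPM, with 1 higher of 3 tested and CD3E at 0 counts in 5 of the 6 libraries. The 5 endothelial markers summed to 13.4 to 16.7 and 19.8 to 22.1 CPM, with 3 higher of 3 tested and KDR read once in each group. With cyclic loess the calls of the fibroblast marker ACTA2 (adjusted p = 0.0902) and the endothelial marker VWF (adjusted p = 0.0589) were lost, which left 1 and 2 higher of 3. With upper-quartile factors 2 of the 3 leukocyte markers were higher. Of 5 acinar markers, CPA1, AMY2A and PNLIP had 0 counts throughout. Over all genes tested, 26.7% were higher and 25.9% lower. The part of these marker differences in the results on MMPs and TIMPs was not tested. In bulk RNA, fewer cells of a type and less RNA per cell cannot be told apart. The labels do not state separate cultures for the libraries of 1 group, and p-values then measure only the spread between these libraries, which may be technical.

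All 3 TIMPs and 5 of the 7 MMPs rose in the libraries labelled knockout, MMP14 fell, and MMP13 did not pass the test. The 8 of 10 members higher stand beside 26.7% of all 16655 genes tested, and the 1 lower beside 25.9%. In either direction 52.6% of all tested genes passed an adjusted p of 0.05. The median log2 fold change of the 10 members was 0.745, against 0.00 over all genes tested. CPM values of the groups did not overlap for any of the 10 members, as for 59.0% of all genes tested. The 10 members were named with earlier results of these data known. All 10 passed the filter on low counts, MMP9 only through the libraries labelled knockout, in which it was higher. The plot of length-scaled levels by library shows every value.

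**Figure D1:**
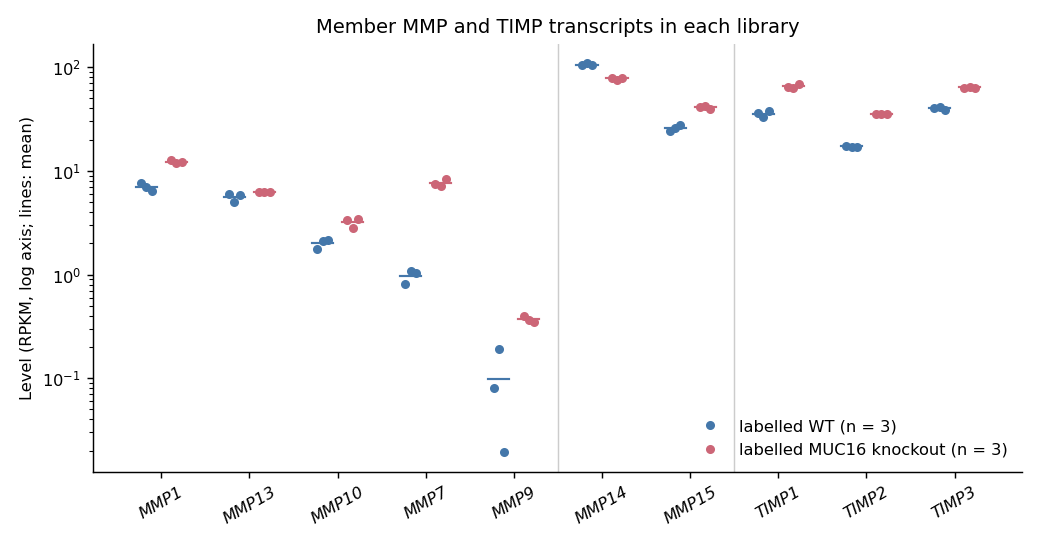
Level of each member in each library, as reads scaled by gene length and library size (RPKM) on a log axis, with secreted MMPs at the left, membrane-type MMPs in the middle and TIMPs at the right. Points are single libraries and lines the mean of 3. MMP14 is the highest gene in both groups and the only one whose knockout points lie below its WT points.

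Upstream sequences are shown first, to let the start regions of MMP7, of its cluster neighbour MMP10, of MMP14 and of 1 TIMP be compared. The table of RefSeq promoters used here (build GRCh38.p14) matched 6 of the 10 members, MMP7, MMP10, MMP14, MMP15, TIMP1 and TIMP3. The 150 bases before the RefSeq start are printed 5′ to 3′ for the 4 whose RefSeq start lies within 28 bases of the GENCODE gene start (123 bases for TIMP1 and 188 for MMP15), read along the gene's own strand, with matches to 4 of the motifs searched in capitals.
MMP7 (chr11:102530748-102530897, minus strand): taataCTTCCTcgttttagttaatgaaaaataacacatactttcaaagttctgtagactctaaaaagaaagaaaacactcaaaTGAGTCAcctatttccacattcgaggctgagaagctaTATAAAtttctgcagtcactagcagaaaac
MMP10 (chr11:102780629-102780778, minus strand): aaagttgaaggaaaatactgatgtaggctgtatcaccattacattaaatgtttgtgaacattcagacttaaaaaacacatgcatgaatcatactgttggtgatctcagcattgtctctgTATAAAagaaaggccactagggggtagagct
MMP14 (chr14:22836435-22836584, plus strand): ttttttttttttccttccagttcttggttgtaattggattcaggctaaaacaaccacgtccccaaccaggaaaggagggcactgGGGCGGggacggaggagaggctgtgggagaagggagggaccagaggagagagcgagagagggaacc
TIMP3 (chr22:32801555-32801704, plus strand): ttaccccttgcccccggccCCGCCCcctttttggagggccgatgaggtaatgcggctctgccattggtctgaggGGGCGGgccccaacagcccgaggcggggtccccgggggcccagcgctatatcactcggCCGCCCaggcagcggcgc
Capitals mark the activator protein 1 (AP-1) motif TGAGTCA, the PEA3 motif of ETS factors AGGAAG, the TATA motif TATAAA and the GC box GGGCGG, each on either strand. In the 250 bases before its start, MMP7 held the AP-1 motif 67 bases upstream, PEA3 motifs at 169 and 145 bases and a TATA motif at 30 bases. It also held the letters CTTTGA, the core of TCF sites, at 194 and 108 bases. MMP10 held a TATA motif at 31 bases and no AP-1 match in these letters. MMP14 held neither TATA nor AP-1 letters and 1 GC box at 66 bases, and TIMP3 held 5 GC boxes, 3 of them in the stretch printed. MMP15 held 5 GC boxes and TIMP1 held 2, with 1 PEA3 motif in TIMP1 at 87 bases. The hypoxia-response core ACGTG was found once each in MMP10, MMP14 and TIMP1. Of all 35116 RefSeq promoter entries, the same 250 bases held the AP-1 motif in 4.2%, PEA3 in 28.7%, TATA in 10.7%, the GC box in 42.6%, CTTTGA in 11.2% and ACGTG in 18.5%. Matches of different motifs did not overlap in these windows. A match describes the letters of the reference genome and was not tied to binding in these cells.

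Among the secreted MMPs, MMP7 showed the largest change. MMP7 (ENSG00000137673, GRCh38 chromosome 11, 102520508 to 102530753, minus strand) is among the smallest members of the family by domain content, since it lacks the hemopexin domain. It cuts E-cadherin, syndecan and Fas ligand besides matrix. Its counts were 50, 67 and 54 in the WT libraries and 341, 428 and 563 in the libraries labelled knockout. That is 1.90, 2.49 and 2.42 CPM against 17.5, 16.7 and 19.2 CPM, so every knockout-labelled library lay far above every WT library. Mean levels were 2.27 ± 0.324 and 17.8 ± 1.32 CPM (SD, n = 3 each), or 7.83-fold higher. On the log2 scale MMP7 was 2.97 ± 0.13 higher (SE, adjusted p = 6.48e-15, edgeR), and 52 of the 16655 tested genes had a higher one. The promoter of MMP7, printed above, was the only one of the 6 with the AP-1 letters. The other 4 members, MMP1, MMP9, MMP13 and TIMP2, had no promoter entry and were not searched.

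The interstitial collagenases MMP1 and MMP13, which cut triple-helical fibrillar collagen, differed from each other. MMP1 (ENSG00000196611, chromosome 11, 102789920 to 102798160, minus strand) was at 15.2, 13.8 and 12.6 CPM in the WT libraries and at 25.1, 23.5 and 24.0 CPM in the knockout-labelled ones. It was thus 1.75-fold higher, with groups that did not overlap (log2 fold change 0.80 ± 0.08, SE, adjusted p = 2.36e-08). MMP13 (ENSG00000137745, chromosome 11, 102942995 to 102955734, minus strand) was at 16.9998, 14.1 and 16.7 CPM against 17.6, 17.9 and 17.9 CPM. Its knockout values lay just above the highest WT value, and the difference did not pass the test (0.16 ± 0.09, SE, adjusted p = 0.125). With upper-quartile factors MMP13 did pass (0.22, adjusted p = 0.0403). Over the alternatives tried, its adjusted p ran from 0.0403 to 0.518. In reads per length, MMP1 and MMP13 together came to 12.6 ± 0.933 RPKM in the WT libraries and 18.6 ± 0.366 RPKM in the others (SD, n = 3 each). Of MMP1's 1970 exon bases 150 (7.61%) are shared with WTAPP1, a pseudogene on the opposite strand, which had 3 to 5 counts in the WT libraries and 4 to 14 in the others.

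MMP10, or stromelysin-2, cuts proteoglycans, laminin and other matrix proteins and can activate collagenase precursors. MMP10 (ENSG00000166670, chromosome 11, 102770503 to 102780628, minus strand) was read 81, 99 and 85 times in the WT libraries and 116, 128 and 178 times in the libraries labelled knockout. At 3.07, 3.68 and 3.81 against 5.94, 4.98 and 6.08 CPM, it was 1.61-fold higher without overlap (log2 fold change 0.69 ± 0.15, SE, adjusted p = 0.000519). MMP9, or gelatinase B, degrades denatured collagen and basement-membrane collagen and was barely expressed. MMP9 (ENSG00000100985, chromosome 20, 46008908 to 46016561, plus strand) had 5, 12 and 1 counts in the WT libraries and 18, 22 and 24 in the others. The summed counts were 18 (95% exact Poisson interval 10.7 to 28.5, counting error only) and 64 (49.3 to 81.7). Its log2 fold change was 1.85 ± 0.49 (SE, adjusted p = 0.00265), and without WT replicate 2, which held 12 of the 18 counts, it was 2.76 (adjusted p = 0.00059). Without WT replicate 3, which held 1 count, it was 1.42 (adjusted p = 0.02), and without WT replicate 1 it was 1.71 (adjusted p = 0.0151). Over all its alternatives the log2 fold change of MMP9 ran from 1.42 to 2.76 and its adjusted p from 0.000491 to 0.02. Of MMP9's 2336 exon bases 430 (18.4%) are shared with the antisense gene SLC12A5-AS1, which had 1 to 8 counts in WT libraries and 3 to 13 in the others. Without strand the reads of the pair cannot be told apart, so the small MMP9 level is uncertain to that extent.

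MMP14 was the most abundant member and the one that fell. MMP14 (ENSG00000157227, GRCh38 chromosome 14, 22836557 to 22849027, plus strand) encodes membrane type 1 MMP, a cell-surface collagenase that also activates the MMP2 precursor. It was at 466.2, 485.9 and 467.4 CPM in the WT libraries and at 351.0, 339.4 and 354.7 CPM in those labelled knockout. The groups were well apart, and the WT level was 1.36-fold the other (473.2 ± 11.03 against 348.4 ± 7.99 CPM, SD, n = 3 each). The log2 fold change of MMP14 was -0.44 ± 0.04 (SE, adjusted p = 1.89e-09, edgeR) and ran from -0.46 to -0.31 over all alternatives. MMP15 encodes membrane type 2 MMP, a close relative with a similar set of substrates. MMP15 (ENSG00000102996, chromosome 16, 58025566 to 58046901, plus strand) was at 108.3, 115.5 and 122.6 CPM in the WT libraries and at 181.5, 186.5 and 175.4 CPM in the others. It rose 1.57-fold (log2 fold change 0.65 ± 0.05, SE, adjusted p = 6.25e-11). In reads per length the level of MMP14 was 4.07 ± 0.258 times that of MMP15 in the WT libraries and 1.91 ± 0.101 times in the libraries labelled knockout (SD, n = 3 each). For MMP14 and MMP15, as for MMP7 and MMP13, no overlapping annotated gene was found.

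All 3 TIMP members rose, by 1.59-fold to 2.06-fold. TIMP1, a broad MMP inhibitor that acts weakly on membrane-type MMPs, lies on chromosome X (ENSG00000102265, 47582313 to 47586789, plus strand). TIMP1 was at 55.4, 51.1 and 58.8 CPM in the WT libraries and at 99.1, 97.0 and 106.3 CPM in the knockout-labelled ones, 1.83-fold higher (log2 difference 0.87 ± 0.05, SE, adjusted p = 4.9e-12). TIMP2 (ENSG00000035862, chromosome 17, 78852977 to 78925387, minus strand), an inhibitor that binds MMP14, had the tightest replicates. It was at 98.7, 95.7 and 96.4 CPM in the WT libraries and 197.9, 200.2 and 200.5 CPM in the others, 2.06-fold higher (1.04 ± 0.04, SE, adjusted p = 1.96e-15). TIMP3 is bound to the matrix and also inhibits sheddases of the ADAM family. TIMP3 (ENSG00000100234, chromosome 22, 32801701 to 32863043, plus strand) was at 184.1, 188.9 and 180.0 CPM against 289.3, 299.7 and 291.7 CPM, 1.59-fold higher (0.67 ± 0.04, SE, adjusted p = 2.37e-12). None of the TIMP groups overlapped. TIMP1 and TIMP3 lie inside the synapsin genes SYN1 and SYN3 on the opposite strand and share 0 exon bases with them. SYN3 had 14 to 24 counts in WT libraries and 40 to 79 in the others, against 4016 to 8542 for TIMP3. TIMP2 shares 198 of 5633 exon bases with CEP295NL and 367 with an antisense gene, and both of these had 0 to 6 counts in every library.

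In the authors' deposited table the 10 members have the same directions. It gives log2 fold changes of 2.96 for MMP7, -0.45 for MMP14 and 1.03 for TIMP2. The authors' deposited table also leaves MMP13 without a call, at an adjusted p of 0.318. Its adjusted p is 0.0132 for MMP9 and 0.00359 for MMP10, the next highest.

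The order of length-scaled levels (RPKM, CPM divided by gene length in kilobases) differed between the groups for TIMP3 and TIMP1, next after MMP14, and among MMP13, MMP10 and MMP7. In the WT libraries MMP14 (106.0 ± 2.47 RPKM) was followed by TIMP3 (40.0 ± 0.97), TIMP1 (35.7 ± 2.49), MMP15 (26.1 ± 1.62) and TIMP2 (17.2 ± 0.271). MMP1 (7.03 ± 0.657), MMP13 (5.62 ± 0.563), MMP10 (2.003 ± 0.223), MMP7 (0.977 ± 0.139) and MMP9 (0.0971 ± 0.087) came next (RPKM, SD, n = 3). No neighbours in that order had overlapping library values. In the libraries labelled knockout MMP14 (78.0 ± 1.79 RPKM) was still highest, followed by TIMP1 (65.4 ± 3.15) and TIMP3 (63.8 ± 1.19), whose values overlapped. MMP15 (41.0 ± 1.27), TIMP2 (35.4 ± 0.25) and MMP1 (12.3 ± 0.415) kept their places. MMP7 (7.65 ± 0.567) stood above MMP13 (6.27 ± 0.0516), and MMP10 (3.22 ± 0.34) and MMP9 (0.37 ± 0.022) were last. The level of MMP7 was 0.176 ± 0.0398 of that of MMP13 in the WT libraries and 1.22 ± 0.0883 times it in the others (ratio of RPKM, SD, n = 3 each). Among replicates the SD was 0.705% to 7.41% of the mean for 9 of the members in the libraries labelled knockout, with 10.6% for MMP10. In the WT libraries it was 1.57% for TIMP2, 2.33% for MMP14 and 89.5% for MMP9.

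The summed inhibitor level was higher in the libraries labelled knockout, and the summed level of the 7 MMPs was nearly the same in both groups. The 3 TIMPs together were at 93.5, 91.2 and 94.3 RPKM in the WT libraries and at 162.3, 163.6 and 167.9 RPKM in those labelled knockout, with no overlap. The 7 MMPs together were at 145.3, 150.3 and 148.0 RPKM against 149.95, 146.85 and 149.7 RPKM, with values of the groups interleaved. Within that sum MMP14 gave 71.7% ± 0.844 in the WT libraries and 52.4% ± 0.652 in the others, and the 6 other MMPs went from 41.85 ± 1.245 to 70.8 ± 0.535 RPKM (SD, n = 3 each). The 5 secreted members alone went from 15.7 ± 0.555 to 29.8 ± 1.05 RPKM. The near-constant sum depends on which MMPs are added: over all 23 MMPs listed it was 174.0 ± 5.24 RPKM in WT libraries and 192.5 ± 2.59 RPKM in the others, and over the 6 membrane-type MMPs it was 136.0 ± 3.46 and 124.4 ± 0.59 RPKM.

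The ratio of summed MMP to summed TIMP level was 1.55, 1.65 and 1.57 in the WT libraries and 0.924, 0.897 and 0.891 in the libraries labelled knockout. For these members it was thus above 1 in every WT library and below 1 in every other one. The side of 1 depends on the MMPs added and on length scaling. Over all 23 MMPs listed, the sum exceeded that of the 3 TIMPs in the libraries labelled knockout too. The means were 192.5 ± 2.59 and 164.6 ± 2.94 RPKM (SD, n = 3 each). In CPM the members' ratio lay close to 1, on both sides of it, in the libraries labelled knockout. For the members the difference in log2 ratio of RPKM was -0.81, with an SD within groups of 0.04 (exact permutation test, two-sided, p = 0.1, the smallest that 3 against 3 allows). TIMP1 was at 0.344, 0.305 and 0.364 times the level of MMP14 in the WT libraries and at 0.818, 0.828 and 0.868 times in the others. TIMP2, which forms a complex with MMP14, was at 0.168, 0.156 and 0.164 times its level against 0.447, 0.468 and 0.448 times. The means of these ratios differed 2.49-fold and 2.8-fold (geometric), with no overlap of the groups and p = 0.1 each (exact permutation test, two-sided, 0.1 after Benjamini-Hochberg adjustment over the 3 ratios). Ratios of RNA levels do not measure protein or enzyme activity.

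**Figure D2:**
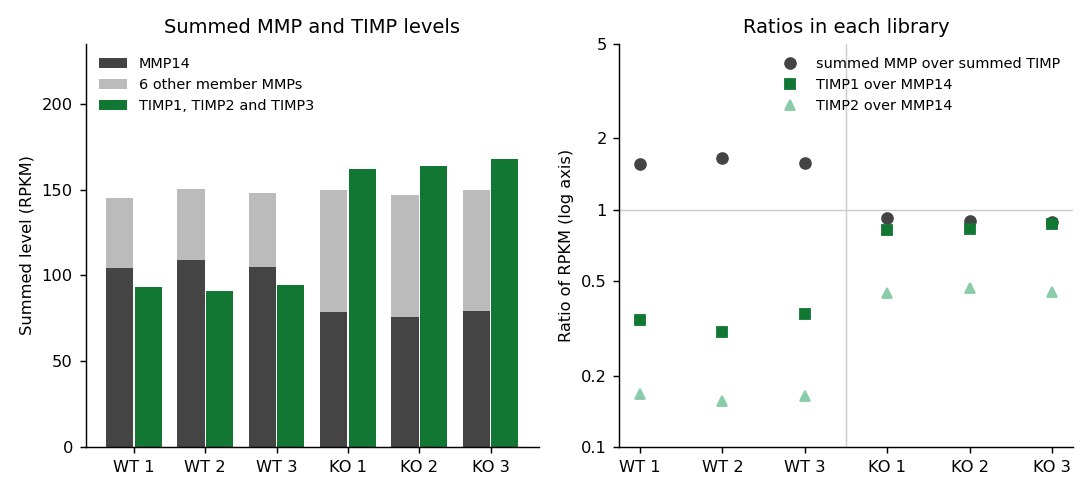
Left, summed RPKM of MMP14, of the 6 other member MMPs stacked on it, and of the 3 TIMPs, for each library (WT and KO after the labels). Right, ratios of RPKM in the same libraries on a log axis. Summed member MMP over summed member TIMP lies above 1.5 in WT libraries and below 1 in the others. TIMP1 and TIMP2 over MMP14 lie higher in the others.

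Of the 16 other MMPs and TIMP4, 8 passed the filter on counts, with 5 higher and 2 lower (median log2 fold change 0.66). The shares over all genes tested were 26.7% higher and 25.9% lower. MMP28, or epilysin, an MMP of epithelia, was by level the largest of the 8. It went from 20.2 ± 2.43 to 36.1 ± 1.48 RPKM (SD, n = 3 each, log2 fold change 0.84 ± 0.06, SE, adjusted p = 1.27e-10). MMP19 (2.67 ± 0.65), MMP11 (1.47 ± 0.38) and MMP25 (1.42 ± 0.45) were higher at very low levels, with at most 37 counts in a library. MMP19, MMP11 and MMP25 passed the filter only through the libraries labelled knockout. The call of MMP25 was lost with cyclic loess scaling (adjusted p = 0.069). The membrane-anchored MMP17 was the other one higher (0.48 ± 0.09, adjusted p = 0.00012), and MMP16 was not called (-0.10 ± 0.14). MMP2, the gelatinase whose precursor MMP14 activates, was lower, at 8.65 ± 0.524 and 6.96 ± 0.532 CPM (-0.32 ± 0.11, adjusted p = 0.0224). TIMP4 was lower too, at 3.31 ± 0.454 and 2.31 ± 0.45 CPM (-0.50 ± 0.20, adjusted p = 0.0366), so the TIMP family did not move as 1 group. Both calls were lost with upper-quartile factors (adjusted p = 0.0577 for MMP2 and 0.0629 for TIMP4). MMP17, MMP16, MMP2 and TIMP4 were named after their values were seen.

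**Figure D3:**
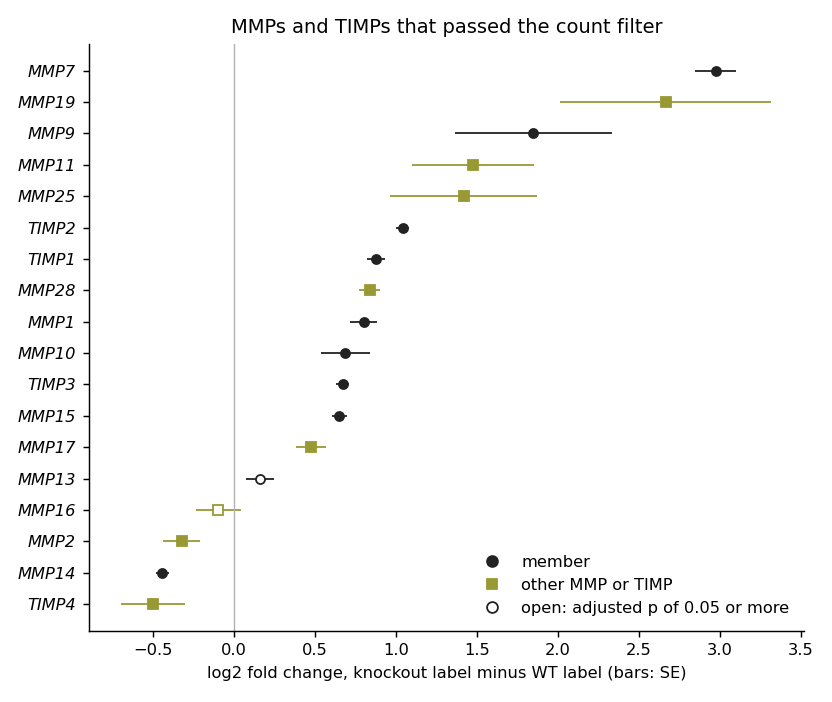
Log2 fold change of the 10 members and the 8 other MMPs and TIMPs that passed the count filter, libraries labelled knockout minus those labelled WT, with SE bars. Open symbols did not pass an adjusted p of 0.05. MMP7 is at the top and MMP14, MMP2 and TIMP4 lie below 0.

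MMP7, MMP10, MMP1 and MMP13 belong to 1 cluster of MMP genes on chromosome 11. Within it the log2 fold change was 2.97 for MMP7, 0.69 for MMP10, 0.80 for MMP1 and 0.16 for MMP13. MMP10 and MMP1, 9292 bases apart, thus changed by like amounts, and MMP7 at one end of the cluster and MMP13 at the other differed most. Between them MMP20, MMP27, MMP8, MMP3 and MMP12 had too few counts to test, and MMP27 and MMP8 had 0 in every library. Outside the cluster, on the side of MMP7, BIRC3, an apoptosis inhibitor of NF-kB signalling, was higher (1.04 ± 0.05, SE, adjusted p = 2.55e-14). TMEM123 (0.32) and BIRC2 (0.14) were higher by less. On the side of MMP13, DCUN1D5 (-0.04) and DYNC2H1 (0.01) were not called. YAP1 was slightly lower (-0.10, adjusted p = 0.0375), a call lost with upper-quartile factors (adjusted p = 0.369), and it turned to 0.03 with cyclic loess. Over the 915 tested genes of chromosome 11 the median was 0.02, with 250 higher and 231 lower.

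**Figure D4:**
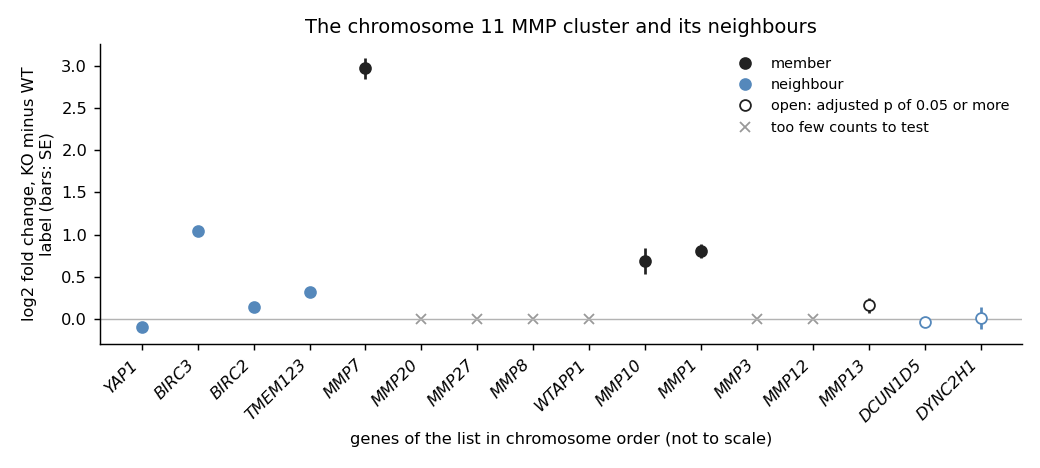
Log2 fold change with SE of the MMP cluster on chromosome 11 and its listed neighbours, in chromosome order and not to scale. MMP7 stands at 2.97, MMP10 and MMP1 at 0.69 and 0.80, and MMP13 at 0.16. Crosses mark genes with too few counts to test, drawn at 0.

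Related metalloproteinases of the ADAM and ADAMTS families were 9 higher and 4 lower of 17 tested (26.7% and 25.9% over all genes). ADAMTS12 went from 0.486 ± 0.13 to 5.69 ± 0.622 CPM (log2 fold change 3.53 ± 0.23, SE, adjusted p = 8.93e-12). ADAMTS9 (4.61), ADAMTS10 (3.11) and ADAMTS16 (2.73) were higher from 0 to 6 counts in each WT library. Like ADAMTS12, which had 10, 17 and 10 counts in the WT libraries, they passed the filter only through the libraries labelled knockout. The sheddases ADAM17 (0.32 ± 0.05) and ADAM10 (0.28 ± 0.04), which TIMP3 can inhibit, were slightly higher. ADAMTS1, which cleaves proteoglycans, was lower, from 242.3 ± 6.46 to 152.2 ± 4.45 CPM (-0.67 ± 0.04, adjusted p = 4.91e-12), as were ADAMTS6 (-0.70), ADAM9 (-0.22) and ADAM15 (-0.19). The call of ADAM15 was lost with cyclic loess (adjusted p = 0.142). ADAM17, ADAM10 and the 4 lower genes were named after their values were seen.

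Proteins that activate MMP precursors or hold MMPs at the cell surface were 9 higher and 2 lower of 17 tested (median log2 fold change 0.21). The shares over all genes tested were 26.7% and 25.9%. PLAT, the tissue plasminogen activator, went from 207.2 ± 9.81 to 743.3 ± 10.8 CPM (log2 fold change 1.84 ± 0.04, SE, adjusted p = 2.64e-19). The serine proteases KLK6 (1.02 ± 0.14) and ST14, or matriptase (0.62 ± 0.04), and the tetraspanin CD151 (0.41 ± 0.05) were higher. FURIN, the convertase that activates MMP14, was not called (0.04 ± 0.04, adjusted p = 0.414), but was with cyclic loess (0.15, adjusted p = 0.00649). Of 12 genes listed under other inhibitors and clearance, 8 were tested, 4 higher and 2 lower (26.7% and 25.9% over all genes). PCOLCE (1.04 ± 0.26), SPOCK3 (0.84 ± 0.19) and the clearance receptor LRP1 (0.29 ± 0.08) were among the higher ones. RECK, a membrane-anchored MMP inhibitor, was not called (0.45 ± 0.20, adjusted p = 0.0687), but was with upper-quartile factors (adjusted p = 0.042). FURIN and RECK were named after their values were seen.

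Transcription factors known to act at MMP promoters moved both ways, 12 higher and 5 lower of 22 tested (26.7% and 25.9% over all genes). The AP-1 subunit FOSL1 was lower, from 190.0 ± 10.3 to 72.9 ± 2.2 CPM (log2 fold change -1.38 ± 0.05, SE, adjusted p = 1.87e-16). ELF3, an epithelial ETS factor, was higher, from 51.8 ± 6.86 to 147.5 ± 5.56 CPM (1.51 ± 0.06, adjusted p = 6.48e-15), and so were the AP-1 subunit JUND (1.21 ± 0.09) and RUNX2 (0.96 ± 0.18). Named after their values were seen, JUN (-0.84 ± 0.05) and ETS1 (-0.92 ± 0.06) were lower. Matrix and surface substrates of MMPs were mostly lower, 15 lower and 6 higher of 23 tested (median -0.28). The shares over all genes tested were 25.9% lower and 26.7% higher. With cyclic loess the count for the substrates was 13 lower and 6 higher. The growth factor precursor HBEGF (-1.04 ± 0.05), the anchoring-fibril collagen COL7A1 (-0.86 ± 0.05) and the laminin chain LAMA3 (-0.74 ± 0.04) were among those that fell. EPCAM (0.66) and CDH1, or E-cadherin (0.46), were among the 6 higher and were named after their values were seen. COL7A1 went from 555.5 ± 7.45 to 304.9 ± 27.2 CPM (SD, n = 3 each).

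Profiles were compared by root mean square distance of centred log2 CPM over the 6 libraries. Among tested protein-coding genes other than the members, those with the most similar profile to MMP7 were SERPINB4 (0.0919), PADI2 (0.156) and PALM (0.162). For TIMP2 they were TTC9 (0.0336), ATAD3C (0.0395) and SLFN11 (0.0403), each about as much higher as TIMP2 was (log2 fold changes 1.07, 1.07 and 1.06). For MMP9 they were FOXA3 (0.215), TMPRSS13 (0.256) and FUT6 (0.256), with means of 0.0999 to 1.43 CPM. With 2 groups of 3 libraries this likeness is mainly one of fold change and is a description only.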

How the data were processed

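Gene-level RNA sequencing counts were used for 6 libraries, 3 labelled WT and 3 labelled knockout by their titles and genotype labels. The authors deposited raw read counts per gene. The submitters' processing notes list STAR, HISAT2, fastp and DESeq and the builds hg38 and GRCh38. What each was used for, its version, how reads were assigned to genes and whether strand was used is not given in the sources used here. Per the labels' protocols, libraries were made with a NEBNext Ultra RNA kit. A second table deposited by the authors holds copied counts, normalised signal and FPKM columns (not used for results), and log2 fold changes and p-values, quoted as the authors'. Gene positions and exon overlaps are those of GENCODE 29 (GRCh38).

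Counts were tested with edgeR 4.0.16 (glmQLFit and glmQLFTest, R 4.3.3, TMM factors, group as the only term) after filterByExpr (minimum count 10, total 15), with Benjamini-Hochberg adjustment over all 16655 genes tested and a threshold of 0.05. SEs were taken from the F statistic. CPM and RPKM are TMM-scaled, RPKM dividing by the gene length in the table. The step was tested on simulated data with far fewer changed genes than were called here. That test does not measure error rates in these data. Library pairs of a group differed beyond sampling noise (chi-square per degree of freedom 2.40 to 6.20).

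Alternatives were DESeq2 1.42.0 and its size factors, upper-quartile factors, limma-voom (limma 3.58.1), no filter, 50 counts in 3 libraries, a replicate block, each library left out and a threshold of 0.01. Cyclic loess and limma-trend were added after the data were seen. Members and lists were chosen with earlier results of these data known. Named genes are the 10 members, MUC16, up to 4 called genes of each list with the largest changes, and the 3 genes of most similar profile to each of the 3 most changed members. Some genes that the rule names are not reported here.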

Additional observations from a re-analysis of the deposited data

How the results depend on the processing

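The members' directions held in all 159 alternative values, and the call was as in the main analysis in 158 of them. The values at the threshold of 0.01 are the main log2 fold changes, so their direction could not differ. The exception in call was MMP13 with upper-quartile factors. MMP9 could not be tested with the filter of 50 counts. Leaving out 1 library at a time gave log2 MMP to TIMP ratio differences of -0.83 to -0.79, TIMP1 to MMP14 differences of 1.24 to 1.37 and TIMP2 to MMP14 differences of 1.46 to 1.51. Without length scaling the MMP to TIMP difference was -0.89 in place of -0.81, since longer transcripts then weigh more. Replicate numbers did not pair the libraries (correlations of same-numbered deviations -0.0622 to 0.012). With the replicate number as a block, 4270 genes were higher and 4172 lower in place of 4442 and 4317, 8 members were higher and 1 lower, and the ratios had p = 0.25 (exact sign-flip permutation over 3 pairs, the smallest it allows). Low counts limit MMP9, MMP19, MMP11 and MMP25.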

Other observations

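MMP12, or macrophage elastase, was too low to test, with 0, 1 and 1 counts in the WT libraries and 5, 7 and 9 in those labelled knockout. The summed counts were 2 (95% exact Poisson interval 0.242 to 7.22, counting error only) and 21 (13.0 to 32.1). MMP3, or stromelysin-1, next to MMP1 on chromosome 11, had 7, 5 and 4 counts in the WT libraries and 1, 7 and 9 in the others, with groups that overlapped. Both were named after their values were seen.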
